A study of Mus musculus with 10 samples.

Results

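The 10 genes described here encode 8 cathepsins, the asparaginyl endopeptidase legumain and the protease inhibitor cystatin C. They were taken by symbol (Ctsb, Ctsc, Ctsd, Ctsh, Ctsk, Ctsl, Ctss, Ctsz, Lgmn and Cst3) from a table of RNA-seq counts with 55453 gene symbols, and all 10 were among the 14614 genes with enough counts to be tested. The aortae came from 10 male C57BL/6 mice, with no genetic change named in the labels, 5 of them young (14.5 weeks old) and 5 old (92.5 weeks old). No treatment is named for either group. Each library was made from the aorta of 1 mouse, which had been flushed with saline and freed of the fat around it, and the comparison addresses how the aortic transcriptome differs with age.

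Cathepsins are proteases that are made as inactive precursors and work mainly in the acid interior of the lysosome, where they degrade proteins and trim or activate other enzymes. Some of them, above all cathepsins S and K, are also released by macrophages and smooth muscle cells and can then cut elastin and collagen of the arterial wall. Cystatin C is secreted by most cells and blocks the cathepsins of the papain family outside the cell, so that the level of protease and the level of inhibitor are usually considered together in arteries.

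Of the 10 genes, 1 was higher in old aorta and none was lower. Transcripts of Ctss, which encodes cathepsin S, were 1.97-fold as abundant in the old as in the young mice (95% interval 1.50 to 2.60). For the other 9 genes the fold change lay between 0.932 (Ctsh) and 1.09 (Ctsk), and the 95% intervals of all 9 stayed between 0.821 and 1.28-fold. The rise was therefore measured for 1 papain-family protease, while its relatives, the aspartic protease Ctsd, Lgmn and the inhibitor Cst3 passed no test. A gene was called when edgeR's quasi-likelihood test gave a Benjamini-Hochberg adjusted p below 0.05 over all 14614 genes. By that rule 11.5% of all tested genes were called, 6.48% as higher and 4.99% as lower in old aorta, so that 1 called gene of 10 is close to the share over all genes. At an unadjusted p below 0.05, Ctss was again the only one of the 10, against 26.7% of all tested genes, the share beside which the counts at that threshold given below stand, and DESeq2 and limma-voom also called 1 higher and 0 lower.

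The libraries held between 19640401 and 22886153 counts on genes. The labelled tissue showed in the markers of smooth muscle, whose 8 genes were all tested and summed to 741823 to 953023 normalised counts per library. Old mouse 2 had the largest share of counts on mitochondrial genes, 11%, against 4.50% to 6.51% in the other libraries. The young and old mice were separate animals, and the chi-square between libraries of 1 group was 8.06 to 58.8 times its degrees of freedom. Levels of single genes are given below as normalised counts, which are counts divided by the size factor of each library.

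Ctss (ENSMUSG00000038642) lies on the plus strand of chromosome 3 in the build GRCm38, at chr3:95526786-95556403, and its exons form 8 blocks. Cathepsin S is a cysteine protease of antigen-presenting cells and macrophages. It cuts the invariant chain of MHC class II molecules, and unlike most cathepsins it keeps its activity at neutral pH. The young mice had 334.3, 286.8, 352.0, 263.6 and 280.7 normalised counts (mice 1 to 5), and the old mice had 453.7, 612.4, 903.1, 540.8 and 462.8. Every old mouse lay above every young one. Old mouse 3 stood highest, and old mice 1 and 5 were the lowest of the old mice. The mean was 303.5 ± 37.7 in young and 594.6 ± 184 in old aorta (SD, n = 5 each). The log2 fold change was 0.98 (SE 0.18, 95% interval 0.58 to 1.38), with an adjusted p of 0.00583 by edgeR's quasi-likelihood test. Without old mouse 3 the log2 fold change was 0.78 (SE 0.11, adjusted p = 0.00153 by edgeR), and without old mouse 2 it was 0.96 (SE 0.20, adjusted p = 0.0142). Such a separation of the groups, with the old mice above, was found in 5.37% of all tested genes, and a separation in either direction in 9.92%. By its p-value Ctss was place 300 among the 947 genes called higher, so that many other genes changed with more certainty. In whole aorta, more RNA per cell and more cells that make the RNA cannot be told apart. Each library held 273 to 969 raw counts of Ctss.

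**Figure D1:**
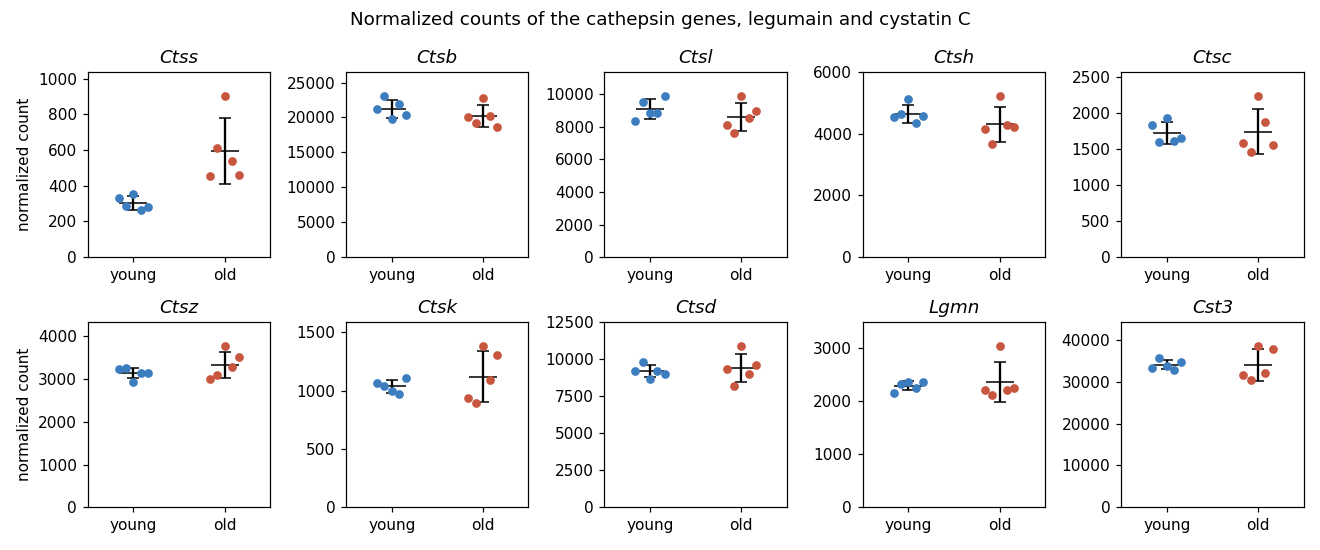
Normalised counts of the 10 genes in each of the 5 young and 5 old mice, 1 panel per gene, with the mean as a line and the SD as a bar. The panel of Ctss is the 1 in which the old mice (453.7 to 903.1) all lie above the young mice (263.6 to 352.0), and old mouse 3 is the highest old mouse in each panel.

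The start of the gene is shown because Ctss was the 1 gene that changed and because its neighbour Ctsk, which did not pass the test, is the nearest gene on that side. Ctsk (ENSMUSG00000028111, chr3:95499256-95509362) lies on the same strand, and the genes are 17423 bases apart. The promoter sequences are those of RefSeq on GRCm38.p6, plus strand, 5′ to 3′. The window of Ctss is chr3:95526536-95526791, which is 250 bases before the transcript start and 6 bases after it, and the window of Ctsk is chr3:95498960-95499209, the 250 bases before a RefSeq start. Capitals mark ACTTCCTC, which is GAGGAAGT read on the other strand, the letters searched for as the motif of PU.1. PU.1 is a transcription factor of macrophages and other myeloid cells.
Ctss: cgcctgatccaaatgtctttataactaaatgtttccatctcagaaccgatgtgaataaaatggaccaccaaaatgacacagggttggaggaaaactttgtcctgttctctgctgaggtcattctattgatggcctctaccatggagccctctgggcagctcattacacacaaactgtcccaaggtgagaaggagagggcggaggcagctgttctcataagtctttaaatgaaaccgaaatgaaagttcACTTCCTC
Ctsk: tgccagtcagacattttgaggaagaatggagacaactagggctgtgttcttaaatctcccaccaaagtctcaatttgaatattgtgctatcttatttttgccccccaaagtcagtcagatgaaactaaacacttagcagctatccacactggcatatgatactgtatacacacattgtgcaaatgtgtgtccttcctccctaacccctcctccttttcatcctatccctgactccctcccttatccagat
The motif spans the Ctss start site, from 2 bases before it (position -2), and GAGGAAGT was found on neither strand of the Ctsk window. Arnt, the gene on the other side of Ctsk, had a log2 fold change of -0.05 (SE 0.05, adjusted p = 0.606 by edgeR), and Hormad1, on the other side of Ctss, had 0 counts in every library.

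Cathepsin K is the collagen-cutting protease of osteoclasts and also cuts elastin. Ctsk had 1064.2, 1042.5, 999.0, 969.5 and 1105.5 normalised counts in the young mice and 933.4, 896.8, 1379.4, 1089.4 and 1300.8 in the old mice. Old mice 3 and 5 lay above all young mice and old mice 1 and 2 below all of them. The log2 fold change of 0.12 (SE 0.11, 95% interval -0.12 to 0.36) had an adjusted p of 0.530 by edgeR's quasi-likelihood test.

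Ctsb, Ctsl, Ctsh, Ctsz and Ctsc are the other members of the papain family. Cathepsins B and L are endopeptidases of general lysosomal protein breakdown, H is an aminopeptidase and Z (also named X) a carboxypeptidase. Cathepsin C is a dipeptidyl peptidase that activates some serine proteases of mast cells and other granulated blood cells. Ctsb (ENSMUSG00000021939, chr14:63122462-63145923, plus strand) had 21237.9 ± 1296 normalised counts in young and 20181.9 ± 1593 in old aorta (SD, n = 5 each). Ctsl (ENSMUSG00000021477, chr13:64359337-64370890, minus strand) had 9091 ± 612 and 8609 ± 878, and Ctsh (ENSMUSG00000032359, chr9:90054152-90076089, plus strand) had 4649.9 ± 295 and 4308 ± 566. All 3 were slightly lower in the mean of the old mice, with log2 fold changes of -0.07 (SE 0.07), -0.07 (SE 0.08) and -0.10 (SE 0.08), and none passed the test. Ctsz (ENSMUSG00000016256, chr2:174427493-174439039, minus strand) went from 3140.4 ± 124 to 3330.3 ± 309 normalised counts, and 3 of 5 old mice lay above the young range. Its log2 fold change of 0.09 (SE 0.07, 95% interval -0.05 to 0.23) had the lowest adjusted p of the 9 genes that were not called, 0.404 by edgeR. Ctsc (ENSMUSG00000030560, chr7:88278085-88310888, plus strand) had 1722 ± 149 normalised counts in young and 1742 ± 316 in old aorta, a log2 fold change of 0.03 (SE 0.11).

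Ctsd encodes the main aspartic protease of the lysosome, which cystatins do not inhibit. It had 9200.4 ± 411 normalised counts in young and 9415 ± 972 in old aorta (ENSMUSG00000007891, chr7:142375911-142388038, minus strand), and the log2 fold change was 0.04 (SE 0.07). Legumain cuts after asparagine and matures several cathepsins. The counts of Lgmn (ENSMUSG00000021190, chr12:102394084-102439813, minus strand) were 2155.0, 2318.5, 2353.0, 2252.9 and 2366.8 in the young mice and 2200.5, 2104.2, 3029.0, 2210.6 and 2245.9 in the old mice, after normalisation. Old mouse 3 lay far above all other mice, and old mouse 2 lay slightly below the young range. The log2 fold change of 0.05 (SE 0.09) turned to -0.06 without old mouse 3.

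Cst3, the inhibitor, was the most abundant of the 10 genes (ENSMUSG00000027447, chr2:148871722-148875692, minus strand). The young mice had 33283, 35591.9, 33844.4, 32856.7 and 34725.8 normalised counts, and the old mice had 31502.9, 30478.6, 38444.3, 31984.4 and 37882. Old mice 3 and 5 were above the young range and old mice 1, 2 and 4 below it, and the group means were 34060.4 ± 1105 in young and 34058.4 ± 3792 in old aorta (SD, n = 5 each). The log2 fold change was 0.01 (SE 0.08, 95% interval -0.16 to 0.17). For the genes that were not called the adjusted p ranged from 0.404 to 0.964.

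**Figure D2:**
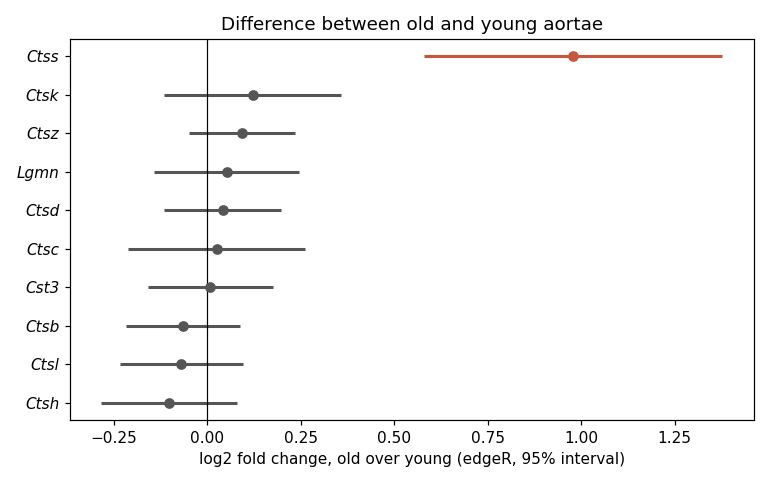
Log2 fold change of each gene, old over young, with the 95% interval of edgeR's quasi-likelihood fit on 5 young and 5 old mice. The interval of Ctss (0.58 to 1.38) excludes 0, and the intervals of the other 9 genes include it and lie between -0.28 and 0.36.

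The ratio of Ctss to each other gene within a library does not depend on the scaling between libraries. Against every one of the 9 other genes this ratio was higher in all old than in all young mice. On the log2 scale the old mice exceeded the young by 0.84 (against Ctsk) to 1.05 (against Ctsh). The exact two-sided permutation test gave p = 0.0079 for each of the 9 ratios, the smallest value that 5 against 5 mice allow, and 0.0079 after adjustment over the 9. The 9 ratios share the same Ctss values, so that they are 1 observation seen against 9 genes and not 9 separate tests, and the comparison was chosen after the values had been seen. For every 100 counts of Ctsk there were 25.4 to 35.2 counts of Ctss in the young mice and 35.6 to 68.3 in the old mice, which was the narrowest separation. Against Ctsh the corresponding values were 6.06 to 7.37 and 10.9 to 17.3, and against Cst3 they were 0.802 to 1.04 and 1.22 to 2.35.

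**Figure D3:**
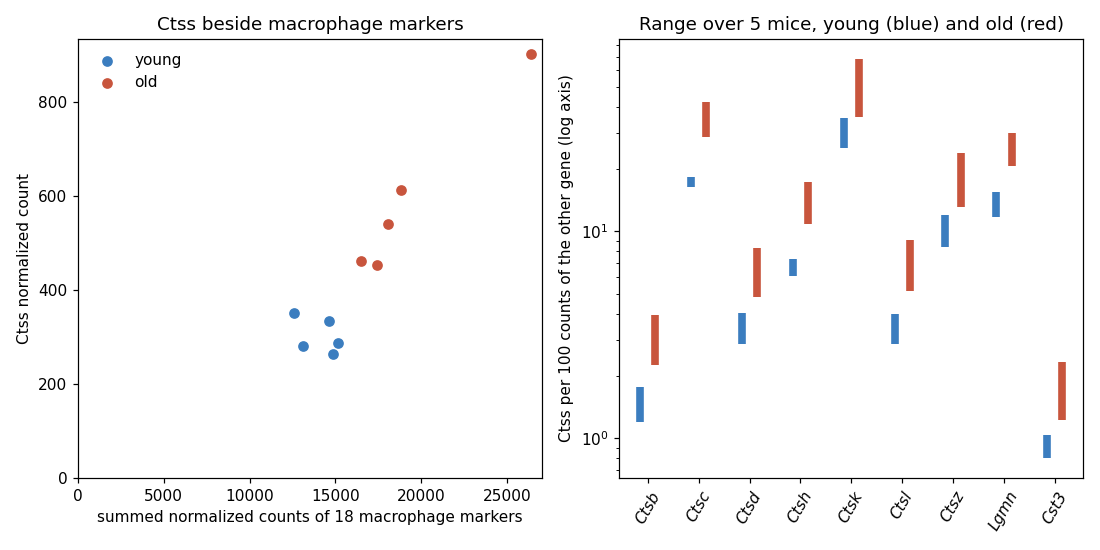
Left, normalised Ctss counts against the summed normalised counts of 18 macrophage markers in each mouse. Right, Ctss counts per 100 counts of each other gene on a log axis, with a bar from the lowest to the highest of 5 mice in each group, in which the old bar lies above the young bar for all 9 genes.

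Levels of different genes can be compared only per length, and are given here as counts per kilobase of merged exons, with each library scaled to 1000000 counts on genes. On this scale Cst3 stood far above the proteases, with 1229 ± 31.8 in young and 1259 ± 150 in old aorta. In young aorta Ctsd (179 ± 7.88) and Ctsb (160 ± 9.37) followed and overlapped each other. Ctsz (99.6 ± 4.78) and Ctsl (63.9 ± 2.95) were lower and separate from their neighbours in this order. Lgmn (45.0 ± 1.10) and Ctsh (47.2 ± 3.32) overlapped, and Ctsk (31.3 ± 1.79) lay below them. Ctsc (13.6 ± 1.44) and Ctss (10.2 ± 1.47) were the lowest of the 10 in young aorta. Every young value of Ctss lay below every young value of Ctsc. In old aorta Ctss reached 20.5 ± 6.39, which overlapped Ctsc (14.0 ± 2.58) and the range of Ctsk (34.7 ± 6.93). The order depended on the length used. Merged exons spanned 6489 bases against 1971 for the principal transcript in Ctsl, 5808 against 2493 in Ctsc and 4499 against 1617 in Ctsh. With the length of the principal transcript, a choice made after the levels had been seen, Cst3 remained first with 1809 ± 46.8 in young aorta. Ctsl (211 ± 9.71) then overlapped Ctsd (198 ± 8.71), which overlapped Ctsb (204.5 ± 11.9), so that these 3 had no clear order. Ctsc (31.6 ± 3.35) moved up to overlap Ctsk. Ctss (10.3 ± 1.47) was again last in young aorta with no overlap, while in old aorta its range overlapped that of Ctsc.

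**Figure D4:**
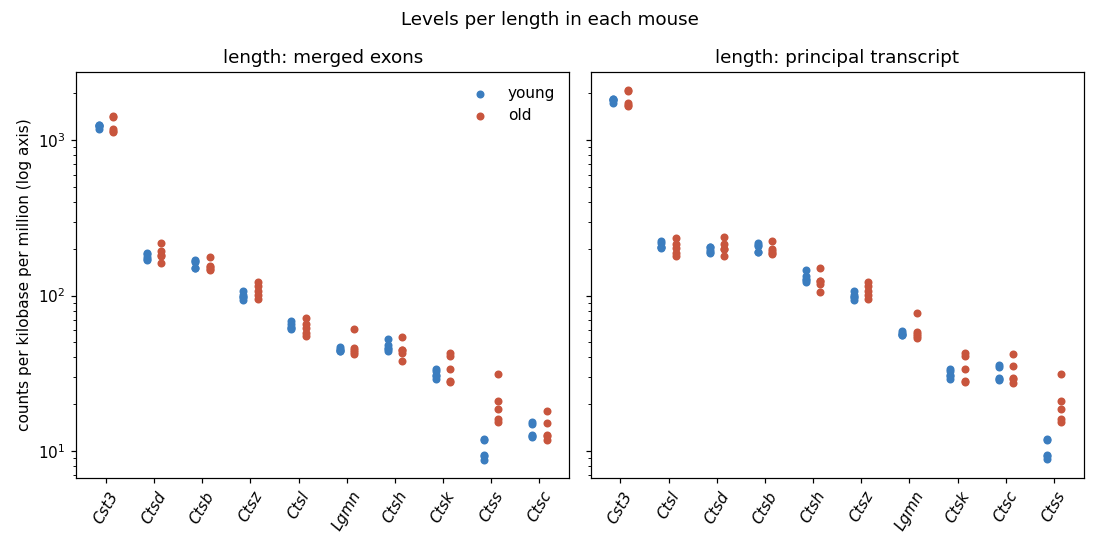
Counts per kilobase, with each library scaled to 1000000 counts on genes, in each mouse on a log axis, for merged exons and for the principal transcript, with 1 point per mouse. Cst3 lies above every protease with either length, and the old range of Ctss lies above its young range.

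The summed per-length level of the 7 papain-family proteases among the 10 genes was set against that of Cst3. Other papain-family cathepsins, such as Ctsf (1555.2 normalised counts in young and 1394.7 in old aorta), were not in the sum. The ratio was 0.347 ± 0.00791 in young and 0.351 ± 0.0230 in old aorta (SD, n = 5 each). The young mice ranged from 0.339 to 0.356 and the old mice from 0.311 to 0.369, so that the old range enclosed the young. The difference of the means, 0.00386, was smaller than the SD of either group. Its size and sign depended on the setting: without Ctsb it was 0.00951 (young SD 0.00346, old SD 0.0127), and with the principal transcript lengths it was -0.00584 (young SD 0.00427, old SD 0.0253), in both cases larger than the young and smaller than the old SD. Ctss made up 2.40% ± 0.335 of the summed level of these 7 proteases in young and 4.60% ± 1.01 in old aorta. The highest young share was 2.86% and the lowest old share 3.66%. With the principal transcript lengths the shares were smaller, 1.42% ± 0.194 in young and 2.81% ± 0.630 in old aorta. There the highest young share was 1.669% and the lowest old share 2.225%. The share of Ctss was thus higher in all old mice, while the ratio to Cst3 overlapped between the groups.

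The old mice varied more. The coefficient of variation was larger in the old than in the young group for 10 of 10 genes, as it was for 50.6% of all tested genes. It was 31.0% in old and 12.4% in young aorta for Ctss, 19.2% and 5.17% for Ctsk, 16.1% and 3.80% for Lgmn, and 11.1% and 3.25% for Cst3. Old mouse 3 held the highest old value of 10 of 10 genes, and old mouse 2 the lowest old value of 7 of 10. Over all tested genes these mice held those places in 25.4% and 26.2%. After the group means were removed, the Pearson correlation of the 45 gene pairs over the 10 mice was positive for 45 pairs and had a median of 0.69, and Spearman's rho had a median of 0.50. Without old mice 2 and 3, the median Pearson r was 0.06, and 26 of 45 pairs were positive. These mice were left out because they held the extremes, and all values of a library share its depth and RNA. Of the 45 pairs, 31 had an r above 0.5 with all mice and 11 without these mice, among them Ctsk with Cst3 (0.84) and Ctsc with Ctss (0.84). The pairs that held Ctss had a median r of 0.47, against 0.70 for the 36 pairs without it.

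The 2 genes whose values followed those of Ctss most closely over the 10 mice, after the group means were removed, were Selplg (Pearson r = 0.98, Spearman's rho = 0.98) and Coro1a (r = 0.97, rho = 0.94). Selplg encodes the selectin ligand of leukocytes and Coro1a an actin-binding protein of blood cells. Coro1a rose from 141.9 ± 31.0 to 269.8 ± 105 normalised counts, a log2 fold change of 0.94 (SE 0.24, adjusted p = 0.0266 by edgeR). Selplg had 68.6 ± 15.7 normalised counts in young and 121.9 ± 57.9 in old aorta, with a log2 fold change of 0.84 (SE 0.28) that did not pass the test (adjusted p = 0.0776 by edgeR).

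Markers of macrophages moved in the same direction as Ctss. All 18 markers on the list were measured and none was at 0. Of the 18, 9 rose, none fell, and the log2 fold change of all 18 was positive, with a median of 0.67 against 0.00 over all tested genes. At an unadjusted p below 0.05, 14 were higher, and DESeq2 called 13 and limma-voom 11. With single mice left out, edgeR called 4 (without young mouse 4 or 5) to 11 of the 18. The fold changes on the log2 scale were 0.84 (SE 0.18) for Tyrobp, the adaptor of myeloid receptors, 0.98 (SE 0.23) for the Fc receptor Fcgr1, 0.83 (SE 0.19) for the lysosomal protein Cd68 and 0.63 (SE 0.15) for F13a1. The summed normalised counts of the markers were 14623, 15170.6, 12574.6, 14854.8 and 13140.5 in the young mice and 17410.3, 18859.3, 26388.8, 18077.5 and 16475.4 in the old mice. Every old mouse lay above every young mouse, and old mouse 3, the highest in Ctss, was also the highest in this sum. The mean of the sum rose 1.38-fold. Ctss per 1000 marker counts was 21.8 ± 4.01 in young and 30.2 ± 3.28 in old aorta, 1.38-fold higher in the mean. The ranges overlapped (17.8 to 28.0 and 26.1 to 34.2). The sum is weighted by abundant markers such as Mertk (3506 ± 905 normalised counts in young and 3569 ± 539 in old aorta), which was not called. Log2 fold changes of the single markers ranged from 0.03 (Mertk) to 1.29 (Cx3cr1, not called), around the 0.98 of Ctss. The part of the macrophage markers in the result for Ctss was not tested.

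Other blood cell markers were near the limit of detection in part. Of 7 neutrophil markers, 6 had too few counts to be tested and Csf3r rose. Of 8 markers of T and NK cells, Cd4 and Cd3g were tested and both rose. Cd4 had 41 raw counts over the 5 young mice and 162 over the 5 old mice, and Cd3g had 16 and 115. Both passed the count filter through the old mice, so that a rise of the tested markers was partly set by the filter. The 4 tested B and plasma cell markers of 7 were not called, with a median log2 fold change of 1.32, and of 7 dendritic cell markers 3 were tested and 1 rose. At an unadjusted p below 0.05 there was 1 of the B and plasma cell markers, and DESeq2 and limma-voom called none of them. Of 5 tested mast cell markers 4 rose and Kit fell. Kit had 681.9 normalised counts in young aorta, against 38.6 (Cma1) to 61.7 (Mcpt4) for the others. With single mice left out, 1 (without old mouse 4 or young mouse 2) to 4 of the 5 were called higher. A lower call remained only without old mouse 1 or young mouse 2. None of 7 endothelial markers was called by edgeR, but 6 were lower at an unadjusted p below 0.05, and DESeq2 and limma-voom each called 4. Without old mouse 2, edgeR called 6 of them lower. Of the fibroblast markers 1 of 8 rose and 2 fell, of the smooth muscle markers 1 of 8 rose, and of the Schwann cell markers 1 of 6 rose and 1 fell. Actc1 fell among 4 tested striated muscle markers. The 6 adipocyte markers and the 5 erythroid markers held no called gene, with 3 and 0 at an unadjusted p below 0.05. DESeq2 called 1 adipocyte and 0 erythroid markers and limma-voom none in either list. Single young libraries stood apart. The adipocyte markers summed to 19642.5 normalised counts in young mouse 1, against 4373.1 to 10720.8 in the other libraries. The untested muscle marker Myh4 had 285.8 in young mouse 2 and at most 5.12 elsewhere. Myh6, also untested, had 161.0 in young mouse 2, 77.9 in young mouse 5 and at most 6.76 elsewhere. The part of these cells in the results above was not tested.

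The other genes of the cathepsin pathway gave the counts that follow, for lists ordered from the enzymes to their targets. Of 7 other lysosomal cathepsins and related proteases, 4 were tested and none was called by edgeR. At an unadjusted p below 0.05 there were 2, and DESeq2 called 1 and limma-voom none. Ctsa, a carboxypeptidase that also protects other lysosomal enzymes, had a log2 fold change of -0.01 (SE 0.06), and Ctsf, of the papain family, had -0.15 (SE 0.07). Napsa, an aspartic protease named here after its values were seen, had 9.63 ± 4.11 normalised counts in young and 22.2 ± 10.5 in old aorta (adjusted p = 0.0548 by edgeR). The 9 cathepsins of the rodent placenta had 0 counts in every library.

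Among 17 other inhibitors, 4 were tested and 3 rose. Of these, Kng2 had 47 raw counts over the 5 young mice and 260 over the 5 old mice. It passed the count filter through the old mice, so that the share of 3 among 4 was partly set by the filter. The members that rose were Fetub (log2 fold change 2.19, SE 0.31, from 22.3 ± 1.53 to 100.9 ± 52.8 normalised counts), Kng2 (2.45, SE 0.47, from 9.47 ± 6.65 to 52.2 ± 28.7) and Ahsg (0.82, SE 0.24, from 145.8 ± 34.6 to 255.5 ± 87.6). These are fetuins and a kininogen, plasma proteins with cystatin domains that the liver makes, and fetuins are not known mainly as cathepsin inhibitors. The liver gene Alb, chosen after its values were seen, had 385.6 ± 245 normalised counts in young and 327.4 ± 318 in old aorta, with overlapping groups. Cstb, the inhibitor inside cells, had 819.8 ± 20.4 and 854.9 ± 105 normalised counts, a log2 fold change of 0.07 (SE 0.08).

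The machinery that brings cathepsins to the lysosome and keeps it acid held no called gene. Of 12 genes for receptors and sorting, 0 were called, with 2 higher at an unadjusted p below 0.05, none by DESeq2 or limma-voom and a median log2 fold change of 0.02. The most abundant were Scarb2 (0.21, SE 0.09), the receptor of glucocerebrosidase, and Sort1 (-0.10, SE 0.06). Of 17 subunits of the proton pump, 0 were called, 1 was lower at an unadjusted p below 0.05, and DESeq2 and limma-voom called none. Atp6ap1 had a log2 fold change of 0.03 (SE 0.07) and Atp6v1a of -0.03 (SE 0.07). The 4 genes of the TFEB family, transcription factors of lysosomal genes, held 0 called genes and 0 at an unadjusted p below 0.05, also with DESeq2 and limma-voom, and the values were 0.04 (SE 0.07) for Tfeb and 0.02 (SE 0.05) for Tfe3. Among 14 lysosomal membrane proteins 2 rose, Cd68 and Laptm5 (0.75, SE 0.21), both of which are made mainly by blood cells. At an unadjusted p below 0.05 there were 6 of the 14, and DESeq2 called 3 and limma-voom 2. Of 39 lysosomal hydrolases, Ppt1 (0.27, SE 0.06) and Dpp7 (0.26, SE 0.07) rose, and Scpep1 (-0.40, SE 0.06) and Arsa (-0.22, SE 0.07) fell. At an unadjusted p below 0.05 there were 11 of the 39, and DESeq2 called 7 and limma-voom 5. The calls by edgeR in both lists were close to the share of 11.5% over all tested genes. Over the hydrolases, which share the lysosome with the cathepsins, the median log2 fold change was -0.00.

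The last lists hold substrates of cathepsins and the genes around them. None of 10 tested genes of MHC class II antigen processing, where cathepsin S acts, was called by edgeR, although all 10 had a positive log2 fold change with a median of 0.94. At an unadjusted p below 0.05, 8 were higher, and DESeq2 called 5 and limma-voom 4. Cd74, the invariant chain that cathepsin S cuts, had 1656 ± 787 normalised counts in young and 3193 ± 1286 in old aorta (log2 fold change 0.95, SE 0.34, adjusted p = 0.108 by edgeR), and H2-Aa had a log2 fold change of 0.93 (SE 0.35). Young mouse 3 stood apart in both, with 3045 normalised counts of Cd74 against 1198 to 1525 in the other young mice, and 1738 of H2-Aa against 626.7 to 733.0. Without that mouse 6 of the 10 genes were called higher, and the log2 fold changes were 1.30 for Cd74 (adjusted p = 0.0146 by edgeR) and 1.33 for H2-Aa (adjusted p = 0.00839), so that the lack of a call depended on 1 library. The 3 tested genes of a list of granule proteases, drawn up as possible targets of cathepsin C, are all mast cell genes. They rose: Mcpt4 (1.21, SE 0.26), Cma1 (0.98, SE 0.29) and Tpsb2 (0.92, SE 0.24). Without old mouse 3, old mouse 4, young mouse 2 or young mouse 5, 1 of the 3 was called. Ctsc was not called, and whether cathepsin C activates each of the 3 was not tested. Of 13 matrix substrates 7 fell and none rose, with a median log2 fold change of -0.40. At an unadjusted p below 0.05, 2 of the 13 were higher, and DESeq2 called 2 higher. Col3a1 (-0.93, SE 0.11), Col1a1 (-0.91, SE 0.15) and Col1a2 (-0.75, SE 0.13) encode fibrillar collagens and Fbn1 (-0.57, SE 0.10) the microfibril protein fibrillin. Eln, which encodes elastin and was named after its values were seen, fell by 0.95 (SE 0.21). The counts are of RNA, so that neither enzyme activity nor the matrix itself was measured. Several of these list members were near the threshold: of 19 other settings of the analysis, Ahsg was called in 6, Arsa in 8, Laptm5 in 9, Cma1 in 10 and Dpp7 in 11.

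**Figure D5:**
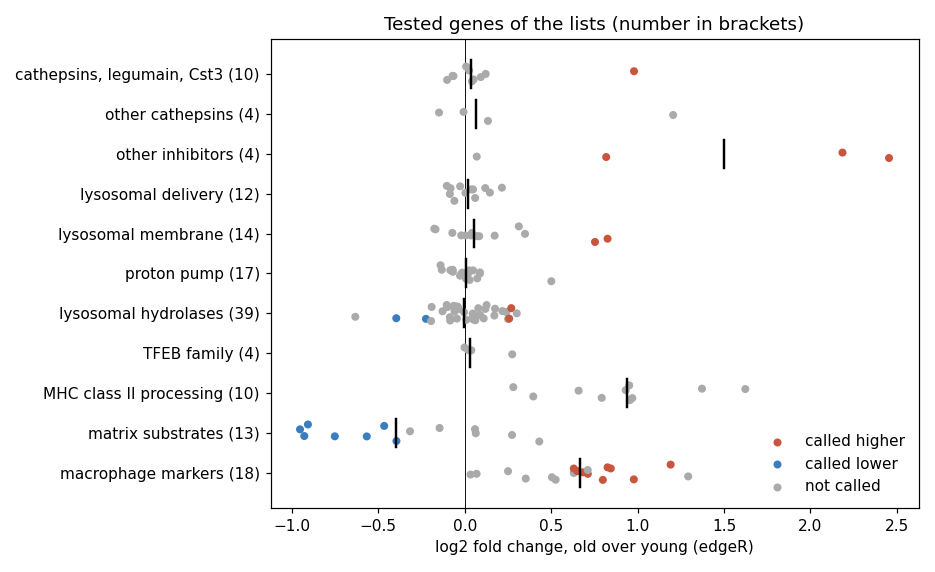
Log2 fold change, old over young, of every tested gene of the 10 genes described here, of pathway lists and of the macrophage markers, 1 point per gene and 1 row per list, with called genes in colour and the median as a line. The medians are near 0 for sorting, proton pump and hydrolases, 0.94 for MHC class II processing and -0.40 for matrix substrates.

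The promoter windows of RefSeq, which span 300 bases around the transcript start, were searched for 3 motifs on both strands. Of the 10 genes, 8 had a window, and Ctsb and Ctsh had none and were not searched. The E-box CACGTG was present in 7.15% of 32851 windows, and among the 10 genes it was in those of Ctsd, Ctsl and Lgmn. TCACGTGA, the core of the element bound by TFEB, which contains the E-box, was in 0.974% of windows and in that of Ctsd. GAGGAAGT was in 3.20% of windows and in those of Ctss and Ctsc, so that of these 2 genes 1 was called higher and 1 was not. The sites are shown in their surroundings on the strand of the gene, because they divide the genes differently from the change with age, with the motif in capitals.
Ctsd: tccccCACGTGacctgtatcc
Ctsd: cgcccgcgtcTCACGTGAcccgttgagg
Ctsl: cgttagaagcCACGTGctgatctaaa
Lgmn: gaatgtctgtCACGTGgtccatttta
Ctsc: tcactaactaACTTCCTCaggccacctc
Ctss: atgaaagttcACTTCCTCattgtggatg
The stretches lie at chr7:142388057-142388077 (E-box) and chr7:142387909-142387936 (E-box within TCACGTGA) for Ctsd, chr13:64370741-64370766 for Ctsl, chr12:102439126-102439151 for Lgmn, chr7:88277924-88277951 for Ctsc and chr3:95526774-95526801 for Ctss on GRCm38.p6, with Ctsd, Ctsl and Lgmn on the minus strand. The 3 genes with an E-box had log2 fold changes of 0.04, -0.07 and 0.05, as given above. These are matches of letters, and binding was not measured.

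Some of the 10 genes share sequence with others, which can move counts between them. In windows of 50 bases, 32.4% of the exonic sequence of Ctsd was shared with Gm49369, 26.3% of that of Ctsl with Gm47123, Gm49230 and Cflar, and 12.1% of that of Ctsb with Fdft1, whose exons overlap it on the other strand. Gm49369 and Gm49230 had 0 counts in every library and Gm47123 had at most 2. Cflar had a log2 fold change of 0.11 (SE 0.06, adjusted p = 0.292 by edgeR). Fdft1 had a log2 fold change of -0.19 (SE 0.13, adjusted p = 0.387 by edgeR). The values of Ctsb, Ctsd and Ctsl are uncertain to that extent. Ctss, Ctsk, Ctsz and Cst3 shared no such window with another gene.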

How the data were processed

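Poly(A) RNA of 10 aortae was sequenced, 1 library per mouse. The authors trimmed reads with fastp 0.20.0, aligned them to GRCm38 with STAR 2.7.0f and counted them per gene with featureCounts of Subread 1.6.4, by the submitters' processing notes. The deposited values are these raw counts, as the authors made them, without normalization. The strand setting and the treatment of reads with several alignments are not given in the sources used here, so that antisense and near-identical genes may share counts.

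Low counts were removed with the default filterByExpr of edgeR 4.0.16 (R 4.3.3), and of 28011 genes with any count 14614 remained. The test of old against young was the quasi-likelihood F test of edgeR (robust, TMM scaling, no covariates), with Benjamini-Hochberg adjustment over all genes tested, and called at an adjusted p below 0.05. Normalised counts are counts divided by size factors of DESeq2 1.42.0. Intervals are 95% intervals of the fit. Ratios were tested by exact two-sided permutation (scipy 1.17.1). Positions and lengths come from GENCODE M21 on GRCm38, and promoter windows from RefSeq. The depth of 19640401 to 22886153 counts per library gave at least 273 counts for each of the 10 genes in each library.

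The genes and lists were chosen with earlier results of these data known. Named from each list were the called genes with the smallest p, at most 4 in each direction, or else the 2 most abundant tested genes, and for Ctss the 2 genes with the highest Pearson r. Cell marker lists other than macrophages are given mainly as counts. The replicate numbers of the groups were checked for pairing. Alternatives were DESeq2, limma-voom (limma 3.58.1), other scalings, other filters, the replicate number as a block, a correction for GC content and exonic length, leaving out each mouse in turn, and 0.01 as the threshold. The tests were tried on counts of old and young mice simulated for the 14614 tested genes, of which 200 changed by a log2 fold of 1. After the count filter 14466 genes remained, and any changed gene lost to the filter counts as not called. Of the 200, edgeR called 166 and 10 others, DESeq2 174 and 24, limma-voom 166 and 6.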

Additional observations from a re-analysis of the deposited data

Results flagged for a closer look

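Lgmn stood apart in old mouse 3. Its 3029 normalised counts there compare with 2104.2 to 2245.9 in the other 4 old mice, and the gap to the nearest mouse was 0.847 of the range of the group, above Dixon's 95% critical value of 0.710 for 5 samples. Of 20 groups tested (10 genes in 2 groups), this was the 1 that passed, and chance alone passes about 1 group in 20. Old mouse 3 was also the highest old mouse for the other 9 genes.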

How the results depend on the processing

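Ctss was called in 19 of 19 alternatives, with log2 fold changes from 0.78 (without old mouse 3) to 1.06 and adjusted p from 2.75e-06 to 0.0213 across edgeR, DESeq2 and limma-voom. No other of the 10 genes was called in any of them. The replicate numbers of young and old mice did not pair: same-numbered mice had correlations of -0.30 to 0.13, and 2 of 5 young mice correlated best with their own number. With the replicate number as a block, 467 genes in place of 729 were called lower, and Ctss stayed called.

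Among the genes named here, signs turned only for values near 0. Under the GC content and exonic length correction the log2 fold change was -0.0205 for Ctsd, -0.0002 for Lgmn, -0.0488 for Cst3, -0.0221 for Atp6ap1 and -0.0542 for Tfeb. With DESeq2 size factors Cst3 had -0.0001, with upper-quartile factors Ctsa had 0.0207 and Atp6v1a 0.0014, and with library size alone Ctsa had 0.018. With single mice left out, values ranged from -0.0833 to 0.078 for Ctsc, -0.018 to 0.0815 for Ctsd, -0.0574 to 0.0845 for Lgmn, -0.0411 to 0.0406 for Cst3, -0.0356 to 0.0156 for Ctsa, -0.0107 to 0.0665 for Atp6ap1 and -0.0063 to 0.0593 for Tfeb.

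Over all genes, single mice left out gave 474 (without young mouse 4) to 1139 (without young mouse 1) genes called lower, and 5 to 14 genes of the pathway lists called higher in place of 10, with 5 without young mouse 5 and 6 without old mouse 3, old mouse 4, young mouse 2 or young mouse 4. DESeq2 called 21 pathway genes higher. At an adjusted p below 0.01 there were 658 called genes (395 higher and 263 lower), and 3 pathway genes higher and 5 lower in place of 10 and 9. The cause was not tested. With 5 mice a group, changes smaller than the intervals given could not be detected.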
